A study of Homo sapiens with 22 samples.

Results

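The clustered protocadherin genes lie side by side on chromosome 5 in 3 arrays, PCDHA, PCDHB and PCDHG. Their deposited CUT&RUN peaks were examined in A673 and CHLA10, which are established cell lines from Ewing sarcoma, a tumour of bone and soft tissue driven by the fusion protein EWS-FLI1. The genes were taken as all protein-coding genes of chromosome 5 whose symbol starts with PCDHA, PCDHB or PCDHG. This gave 53 of 19974 protein-coding genes, with 15 PCDHA, 16 PCDHB and 22 PCDHG genes. The rule itself uses no measured value. Each gene was represented by its annotated start and 1 kb on each side, because all 15 PCDHA genes share the end at position 141012347 and all 22 PCDHG genes the end at position 141512975. Neighbouring starts lay 3.374 to 85.119 kb apart (median 6.349 kb), and no 2 neighbouring windows overlapped.

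Clustered protocadherins are cell-surface proteins of the cadherin superfamily that neurons use to tell their own branches from those of other cells. In the alpha and gamma arrays each variable exon has its own promoter and is spliced to constant exons shared by the whole array, and the beta genes have a single coding exon each. A neuron usually uses only a few of the alternate promoters, in a partly random choice in which DNA methylation, CTCF and cohesin take part, whereas the C-type isoforms at the ends of the alpha and gamma arrays are transcribed more broadly. Alternate promoters carry a short conserved element that contains the letters CGCT, called the CGCT box. Enhancers in and beyond the alpha constant exons are known to act on the alpha promoters.

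The series holds 22 CUT&RUN libraries, a method in which an antibody directs micrococcal nuclease to chromatin and the released fragments are sequenced. Its title places EWS-FLI1 and HOXD13 in tumour cell plasticity. In each line, cells labelled shNS were profiled in 2 libraries for each of H3K4me3, a mark of promoters, H3K27ac, a mark of active promoters and enhancers, H3K4me1, a mark of enhancers, and H3K27me3, the Polycomb mark. HOXD13, a homeobox transcription factor, was profiled in 1 library per line in cells without the shNS label, so HOXD13 peaks and histone marks come from differently labelled cells. All libraries used 250000 to 500000 cells and paired reads of 25 bp, with antibodies diluted 1:20 for HOXD13, 1:50 for H3K27ac and IgG and 1:100 for the other marks. The 4 IgG libraries have no peak list in the files used here, which left 18 lists. Separate cultures are not stated for replicates, so agreement of both libraries may be technical.

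The 16 histone lists held 17909 to 106770 peaks each, and the HOXD13 lists 7160 in A673 and 2099 in CHLA10. They give no read counts, so the depth behind a peak is unknown and a missing peak means only that none was deposited. The protocadherin exons resemble each other in sequence, and how reads with several matches were placed is not given in the sources used here, so a peak at one gene may hold reads of a close copy. Of the Ewing sarcoma markers, 11 of 12 had H3K4me3 in all 4 libraries, among them NKX2-2, CD99 and NR0B1, and KCNAB3 had none at its lower gene boundary, the position used because its strand was not given. Of the 5 haematopoietic markers none was marked in A673 and SPI1 was marked in CHLA10. Of the 5 epithelial markers, KRT8 and KRT18 were marked in both lines and EPCAM in CHLA10, and of the 5 neural markers SNAP25 and MAP2 were marked in both lines. CCND1, SPI1, KRT18, EPCAM and SNAP25 also had no strand given. Their peaks were therefore counted at the lower gene boundary, which can be either end of the gene.

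In what follows a start is marked in a line if both of the line's libraries hold a peak that shares 1 bp or more with the window, and marked in 1 line only if the other line's libraries hold none. Shares over all 19974 protein-coding genes, measured in the same way, stand beside the counts. No test between lines was run, since an exact permutation test of 2 libraries against 2 offers 3 splits and a smallest p of 0.33.

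H3K4me3 marked a minority of the protocadherin starts, and the marked starts were in part different in the 2 lines. In A673 it was present at 16 of 53 starts (30.2%), against 57.8% of all genes, and in CHLA10 at 11 of 53 (20.8%), against 57.6%. At 7 starts all 4 libraries had a peak (13.2%, against 55.1% of all genes). A further 8 starts were marked in A673 only (15.1%, against 1.81%) and 3 in CHLA10 only (5.66%, against 1.85%). At 30 of 53 no library had a peak (against 37.9%). Of the 16 starts marked in A673, 7 were also marked in CHLA10, whereas over all genes marked in A673 this share was 95.2%. In the other direction it was 7 of 11, against 95.6%. For 4161 of the 19974 genes no strand was given and the lower boundary stood for the start. Over the 15813 genes with a strand, the shares were 65.0% in each line, 1.83% in A673 only and 2.04% in CHLA10 only. Without replicate 1 of the CHLA10 H3K4me3 libraries the count in CHLA10 only was 5, the added genes being PCDHB13 and PCDHGA7. When the weaker 50% of every list was dropped, ranked on q-value, 5 starts were marked in A673, 5 in CHLA10 and 2 in A673 only.

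**Figure D1:**
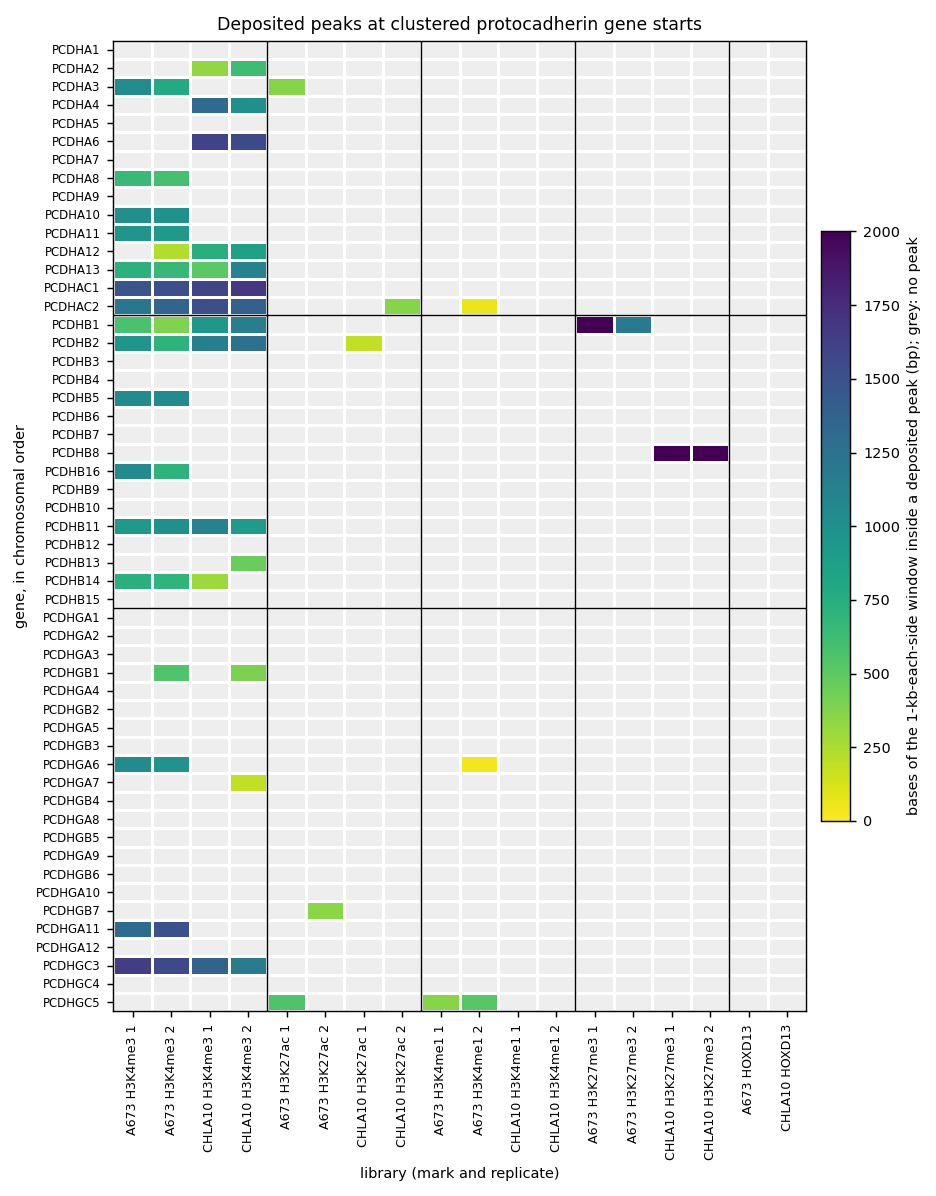
Bases of each window, 1 kb on each side of the start, covered by a deposited peak, for the 53 genes in chromosomal order (rows) and the 18 libraries (columns), on a colour scale from 0 to 2000 bp with grey for no peak. H3K4me3 fills 16 rows in both A673 libraries and 11 in both CHLA10 libraries, only 7 of them the same, and the other columns are nearly empty.

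Both lines had H3K4me3 at 7 of the 15 PCDHA starts, but shared only 3 of them, PCDHA13, PCDHAC1 and PCDHAC2. The starts marked in A673 only were PCDHA3, PCDHA8, PCDHA10 and PCDHA11, and those marked in CHLA10 only PCDHA2, PCDHA4 and PCDHA6. All of these encode alpha isoforms that differ in the variable extracellular part and share the same cytoplasmic end. PCDHA12 had a peak in both CHLA10 libraries and in 1 A673 library. PCDHA1, the first gene of the array, and PCDHA5, PCDHA7 and PCDHA9 had no peak in any of the 18 lists.

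The strength of a peak is given below as the deposited −log10 q value, for replicates 1 and 2 in turn. It depends on the depth of its library and is not compared between lists. PCDHA3 had values of 127 and 76.8 in A673 and no peak in CHLA10. PCDHA11 had 69.3 and 81.6 in A673, PCDHA10 had 62.0 and 24.2, and PCDHA8 had 28.7 and 24.3. The order of the 4 differed between the replicates. These A673 peaks therefore lay well above the deposited limit of q = 0.01 in both replicates, and neither CHLA10 library had a peak there. In CHLA10, PCDHA6 had 51.1 and 43.1, PCDHA4 had 15.98 and 19.3, and PCDHA2 had 7.97 and 9.08. PCDHA6 outranked 63.6% and 61.5% of the peaks in its lists and PCDHA2 27.1% and 30.3%. PCDHA12 gave 2.84 in A673 replicate 2 and 6.82 and 12.4 in CHLA10.

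The sequences before 3 alpha starts are shown for an exon marked in A673 only, an exon marked in CHLA10 only and an exon without any peak, each as the 100 bases before the start on the plus strand, from the RefSeq promoters of GRCh38.p14. Capitals mark CGCT. PCDHA10 covers chr5:140855797-140855896, PCDHA6 chr5:140827860-140827959 and PCDHA9 chr5:140848282-140848381.
PCDHA10: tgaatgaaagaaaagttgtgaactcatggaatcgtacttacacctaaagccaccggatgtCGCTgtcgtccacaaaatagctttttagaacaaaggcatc
PCDHA6: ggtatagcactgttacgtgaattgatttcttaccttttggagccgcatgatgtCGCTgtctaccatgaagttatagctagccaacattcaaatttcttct
PCDHA9: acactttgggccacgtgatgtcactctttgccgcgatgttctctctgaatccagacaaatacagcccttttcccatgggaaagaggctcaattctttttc
The box stood 40 bp before the PCDHA10 start and 47 bp before the PCDHA6 start, in the same run of letters, atgtCGCTgtc, although the exons were marked in different lines. The PCDHA9 window held no CGCT, which says only that these letters are not in it.

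In the beta array, H3K4me3 was present at 6 of 16 starts in A673 and at 3 in CHLA10, and those 3, PCDHB1, PCDHB2 and PCDHB11, were also among the 6. PCDHB11 had 126 and 93.8 in A673 and 27.9 and 34.1 in CHLA10, and PCDHB2 had 88.4 and 92.9 in A673 and 46.4 and 41.6 in CHLA10. PCDHB1, which stands apart at the alpha side of the array, had 6.97 and 10.3 in A673 and 18.3 and 40.0 in CHLA10. PCDHB5 (36.7 and 45.9) and PCDHB16 (24.4 and 37.4) were marked in A673 only. PCDHB14 had 19.4 and 23.9 in A673 and 4.76 in CHLA10 replicate 1 alone. PCDHB13 had a peak only in CHLA10 replicate 2, at 4.60. The last gene, PCDHB15, and 7 other beta genes had no peak in any list.

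The gamma array was the least marked, with H3K4me3 at 3 of 22 starts in A673 and at 1 in CHLA10. The start marked in both lines was that of the C-type gene PCDHGC3, whose peaks were the strongest of all 53 genes in each of the 4 libraries. Its −log10 q was 290 and 198 in A673 and 73.0 and 88.7 in CHLA10, and its fold enrichment over the caller's background was 93.1, 70.5, 29.7 and 30.9 in the same order. PCDHGA11 (101 and 80.8) and PCDHGA6 (35.7 and 45.3) were marked in A673 only. PCDHGB1 had a peak in 1 library of each line, at 6.37 in A673 and 3.63 in CHLA10, and PCDHGA7 in CHLA10 replicate 2, at 2.57. PCDHGA1, the first gamma gene, and 14 others had no peak in any list.

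With the full lists, the C-type genes had the same H3K4me3 state in both lines. H3K4me3 was present in all 4 libraries at 3 of 5, PCDHAC1, PCDHAC2 and PCDHGC3, and in none at PCDHGC4 and PCDHGC5. PCDHAC1 had 69.7 and 42.5 in A673 and 64.4 and 58.8 in CHLA10, among the strongest of the alpha array in both lines. PCDHAC2 had 15.2 and 11.4 in A673 and 31.4 and 44.1 in CHLA10. Of the 48 other genes, 13 were marked in A673 and 8 in CHLA10, with 4 in all 4 libraries. All 11 starts marked in 1 line only were among these 48. When the weaker 50% of every list was dropped, however, PCDHAC1 and PCDHAC2 were marked in CHLA10 only.

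**Figure D2:**
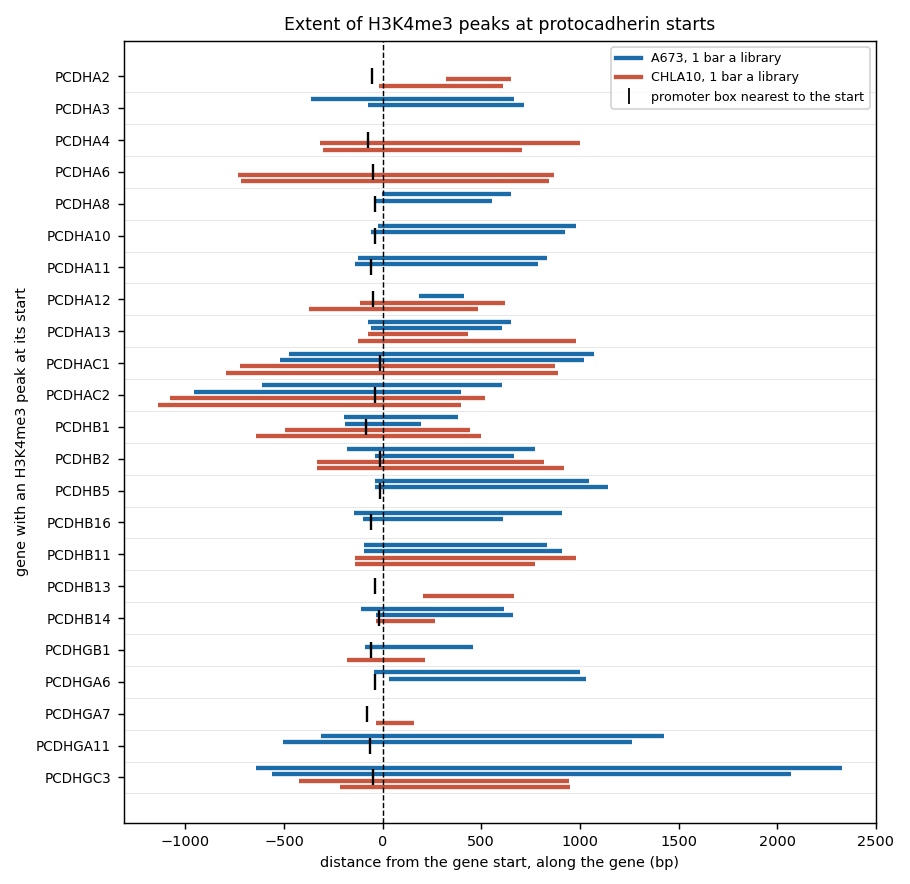
Position of every H3K4me3 peak at a protocadherin start, in base pairs along the gene from the start (dashed line at 0), with 1 bar per library, A673 in blue and CHLA10 in red, for the 23 genes with a peak in at least 1 library. The black tick (promoter box) is the CGCT nearest to the start in the 250 bases before it, where the promoter table held the gene. Most bars begin close to the start and run into the exon, and the longest, at PCDHGC3 in A673, reach 2327 bp and 2070 bp.

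H3K4me3 peaks at these starts were short and, as at most other genes, lay mostly on the exon side. Their median length was 1017.5 and 859 bp in the A673 libraries and 1136.5 and 1054.5 bp in the CHLA10 libraries, against 2513, 2433.5, 2353.5 and 2418 bp for the other genes whose window held 1 peak. The median upstream edge lay 133 and 81.5 bp before the start in A673 and 324 and 257.5 bp before it in CHLA10, against 745.5 to 780 bp for the other genes. More bases lay after the start than before it in 15 of 16 and 17 of 18 peaks in A673 and in 10 of 12 and 12 of 14 in CHLA10, and in 78.1% to 79.8% of peaks at other genes. The upstream edge varied among the genes. At PCDHA10 the A673 peaks began 23 and 61 bp before the start, and at PCDHAC2 the CHLA10 peaks began 1078 and 1139 bp before it. Median −log10 q was also lower than at other genes, at 52.1 and 40.0 against 130 and 115 in A673 and 23.1 and 26.7 against 65.2 and 58.4 in CHLA10. The part of peak strength in these lengths was not tested.

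Promoter entries were found for 47 of the 53 genes, and PCDHA3, PCDHA13, PCDHB6, PCDHB11, PCDHGA12 and PCDHGC5 had none. Over the 250 bases before to 50 after the start, the letters CGCT occurred on either strand in 46 of 47, and in 70.0% of the 35116 promoters of the table, so these 4 letters alone are common. Longer forms that hold the box were chosen after the sequences were seen and are given as a description. ATGTCGCT occurred in 9 of 13 PCDHA promoters and in 0.234% of all promoters. GGTGGCGCT occurred in 13 of 14 PCDHB promoters and in 0.501% of all, and CGCCGCTGT in 9 of 20 PCDHG promoters and in 0.604% of all. Both strands were searched, and all 3 forms overlap CGCT. Each form was found in its own array and in neither of the others.

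The alpha form of the box stood at starts marked in 1 line only and at starts without a peak. ATGTCGCT was present at PCDHA8 and PCDHA10, marked in A673 only, at PCDHA2, PCDHA4 and PCDHA6, marked in CHLA10 only, and at PCDHA1, PCDHA5 and PCDHA7, which had no peak. The remaining promoter with this form was that of PCDHA12, with H3K4me3 in both CHLA10 libraries and 1 A673 library. PCDHA11, marked in A673 only, did not hold it. Among peaks at promoters with a box upstream on the gene strand, the peak covered the box nearest to the start in 23 of 28 cases in A673 and in 18 of 22 in CHLA10. The core of the CTCF motif occurred on either strand in 1 of 47, PCDHB9, and in 2.41% of all promoters.

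Base composition set the C-type starts apart from the others. Median GC content was 61.8% and the median number of CpG 20.5 at the 4 C-type promoters in the table. The 14 other promoters with H3K4me3 in both libraries of a line had 37.3% and 7.5 CpG, and the 26 without it in any library 39.2% and 6.5, against 58.7% and 14 over all promoters. The marked and unmarked promoters outside the C type therefore had similar medians, with ranges of 34.3% to 45.3% and 32.3% to 51.3%. PCDHGC4, with 60.7% GC and 23 CpG, had no H3K4me3 peak in any library.

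Sequences of the other arrays are shown for starts marked in 1 line only and for neighbours without a peak. In the beta array, PCDHB1 (chr5:141051274-141051373) had H3K27me3 in A673 only, PCDHB8 (chr5:141177690-141177789) had it in CHLA10 only and PCDHB3 (chr5:141100373-141100472) had no peak. In the gamma array, PCDHGA11 (chr5:141420951-141421050) had H3K4me3 in A673 only and PCDHGA10 (chr5:141412887-141412986) had no peak. Each line gives the 100 bases before the start on the plus strand, GRCh38.p14, with CGCT in capitals.
PCDHB1: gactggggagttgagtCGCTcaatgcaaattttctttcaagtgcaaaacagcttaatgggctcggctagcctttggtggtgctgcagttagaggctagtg
PCDHB8: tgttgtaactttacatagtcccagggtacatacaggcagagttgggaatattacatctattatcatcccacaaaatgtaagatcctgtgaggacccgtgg
PCDHB3: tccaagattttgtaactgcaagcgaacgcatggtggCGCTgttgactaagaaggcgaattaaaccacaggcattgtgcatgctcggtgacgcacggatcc
PCDHGA11: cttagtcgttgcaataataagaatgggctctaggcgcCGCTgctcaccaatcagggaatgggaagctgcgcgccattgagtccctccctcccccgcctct
PCDHGA10: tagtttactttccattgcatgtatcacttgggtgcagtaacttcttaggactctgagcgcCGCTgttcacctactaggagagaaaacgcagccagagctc
At PCDHB8 the box began 3 bp after the annotated start and falls outside the printed bases. The boxes of PCDHGA11 and PCDHGA10 began 63 and 40 bp before the start.

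H3K27ac was nearly absent from the protocadherin starts. No member had it in both libraries of A673 (against 4.66% of all genes) or of CHLA10 (against 14.5%), so none was counted in A673 only (against 1.20%) or CHLA10 only (against 7.92%). At 5 starts a single library had a peak. In A673 replicate 1 these were PCDHGC5 at 9.001, which outranked 71.8% of its list, and PCDHA3 at 2.47, and in A673 replicate 2 PCDHGB7 at 3.43. In CHLA10 they were PCDHB2 at 3.95 in replicate 1 and PCDHAC2 at 2.59 in replicate 2. Counted from a single library, A673 would have 1 or 2 members and CHLA10 1. Among the starts with H3K4me3 in both libraries, 1 of 16 in A673 had H3K27ac in at least 1 library, against 23.5% of all genes with H3K4me3, and 2 of 11 in CHLA10, against 46.4%. The near absence was not particular to these genes. The 14 classical cadherins counted below had no H3K27ac peak in any library. Of the 12 Ewing sarcoma markers, 0 had it in both A673 libraries and 2, STEAP1 and CAV1, in both CHLA10 libraries.

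H3K4me1 marked a single start. PCDHGC5, the last gene of the gamma array and one of the C-type genes without H3K4me3, had peaks of 7.85 and 4.66 in A673 and none in CHLA10. It was the only member marked in both A673 libraries (against 4.92%) and in A673 only (against 4.11%). The peaks of the 2 libraries, chr5:141488009-141488442 and chr5:141488780-141489310, did not overlap, so the libraries called different sites within the window. Its nearest peak edge was 639 bp from the start in replicate 1 and the peak crossed the start in replicate 2, and the count was 0 with a window of 0.5 kb. A673 replicate 2 also had peaks at PCDHAC2 (10.4) and PCDHGA6 (2.70), whose edges lay 941 and 963 bp from the start, just inside the window. The nearest peak outside a window lay 1725 bp from the PCDHGC3 start in the same library. Without A673 replicate 1 the count was 3. No CHLA10 library had an H3K4me1 peak at a protocadherin start, where 0.436% of all genes had it in both libraries and 0.120% in CHLA10 only.

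H3K27me3 was found at 1 start per line and not at the same one. In A673 it lay over PCDHB1 (2.70 and 3.18; 9.02% of all genes in both libraries, 3.15% in A673 only), where the peaks were 4878 and 2348 bp long. In CHLA10 it lay over PCDHB8 (3.70 and 5.28; 8.11% and 2.37%), with peaks of 4010 and 4312 bp. PCDHB1 also had H3K4me3 in both lines, and PCDHB8 had no other peak. The PCDHB1 call was lost when the weaker 50% of peaks was dropped. The starts without H3K4me3 had little H3K27me3. In A673, 0 of 35 such members had it in both libraries, against 10.5% of all such genes, and in CHLA10 1 of 38, against 14.0%.

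**Figure D3:**
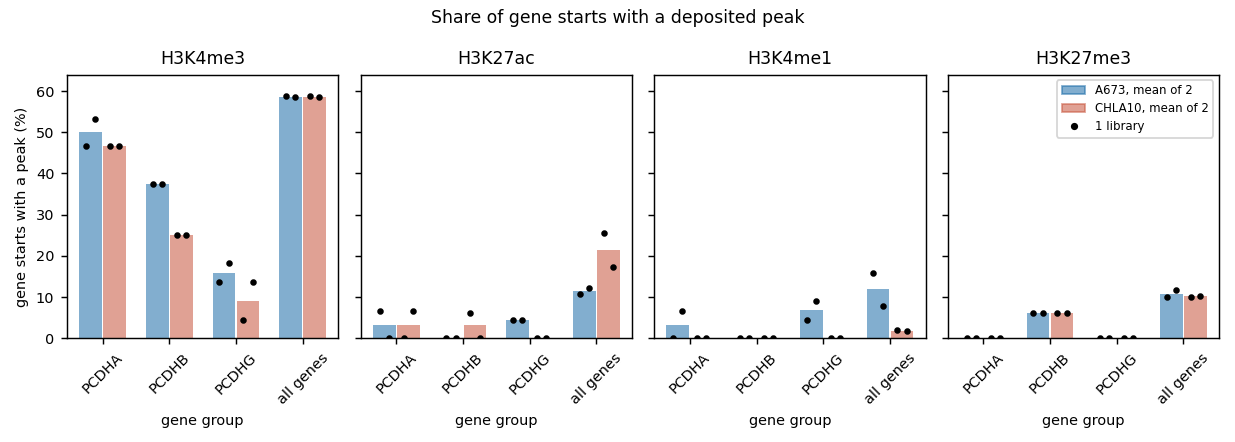
Share of gene starts with a peak (percent) for the 15 PCDHA, 16 PCDHB and 22 PCDHG genes and for all 19974 protein-coding genes, in 1 panel per histone mark; bars are the mean of 2 libraries, blue for A673 and red for CHLA10, and points are single libraries. H3K4me3 falls from PCDHA to PCDHG in both lines and the mean share of each other mark lies below that of all genes in every group.

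In total 27 of 53 members had no peak of any of the 18 lists in their window (against 20.7% of all genes). These were 4 PCDHA, 8 PCDHB and 15 PCDHG genes, and they include PCDHGC4. Of the other 26, 23 had H3K4me3 in at least 1 library and 20 in both libraries of at least 1 line.

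HOXD13 had no peak at any protocadherin start, in A673 (against 1.72% of all genes) or in CHLA10 (against 0.175%). In A673 it had 4 peaks inside the 727.836 kb of the locus, all in the alpha constant region, which RefSeq annotates as PCDHACT, and none elsewhere. The strongest, at chr5:141001996-141002239, had a −log10 q of 39.6 and a fold enrichment of 19.5, and outranked 92.8% of its list. It lay 35.52 kb after the PCDHAC2 start, the nearest protocadherin start. The others, at chr5:141002853-141003020, chr5:141003965-141004238 and chr5:141004446-141004561, had 16.4, 3.10 and 3.69. CHLA10 had no HOXD13 peak in the locus, and its nearest lay 1597.79 kb from PCDHGC5. With 1 library per line and a shorter list in CHLA10, this difference has no replicate check.

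The HOXD13 peaks lay where several histone marks met. At chr5:141001223-141003170, 11 of the 18 lists had a peak, with H3K4me3 and H3K27ac in all 4 libraries each, H3K4me1 in both A673 libraries and HOXD13 in A673. H3K4me3 there was 21.9 and 9.62 in A673 and 18.7 and 8.27 in CHLA10, and H3K27ac 4.12 and 5.62 in A673 and 3.56 and 3.93 in CHLA10. The marks at chr5:141003899-141005371 were H3K27ac and H3K4me1 in both A673 libraries, H3K27ac in 1 CHLA10 library and HOXD13 in A673. Between these and PCDHAC2, chr5:140985421-140987022 had H3K27ac in both CHLA10 libraries (15.6 and 16.3) and in no A673 library. H3K4me1 was called there in both A673 libraries (7.85 and 9.21) and in 1 CHLA10 library (4.58).

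**Figure D4:**
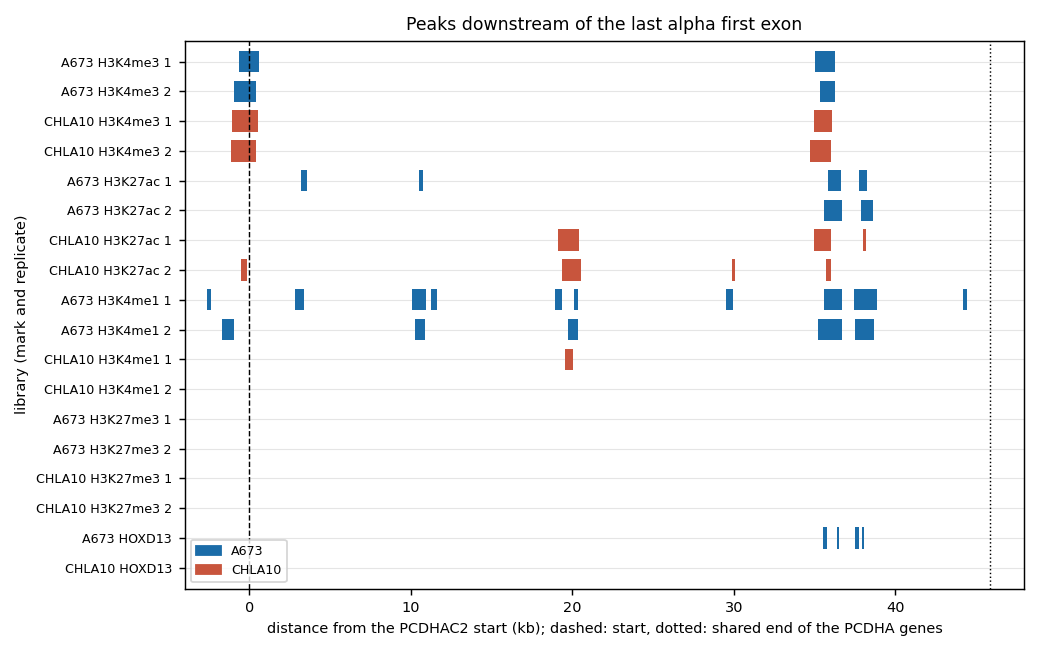
Peaks of the 18 libraries (rows) from the last alpha variable exon to the shared end of the PCDHA genes, in kb from the PCDHAC2 start (dashed line at 0; the dotted line is the shared end), blue for A673 and red for CHLA10. The 4 A673 HOXD13 peaks begin 35.52 kb after the start, where peaks of H3K4me3, H3K27ac and H3K4me1 also lie, and the CHLA10 HOXD13 row is empty.

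Most H3K27ac and H3K4me1 peaks of the locus lay outside the start windows. The windows are themselves a small part of it, 53 windows of 2001 bp in 727.836 kb. Peaks touching a window were, for H3K27ac, 2 of 8 and 1 of 9 in A673 and 1 of 8 in each CHLA10 library. For H3K4me1 they were 1 of 18 and 3 of 10 in A673 and 0 of 3 in CHLA10 replicate 1. Whether the peaks avoid the windows was not tested. Over the whole locus, 56 merged regions held the peaks of the 18 lists, 27 of them at a start window and 29 outside. H3K27ac covered 5.299 and 5.393 kb in A673 and 6.474 and 4.283 kb in CHLA10. H3K4me1 covered 12.909 and 12.265 kb in A673, 1.306 kb in CHLA10 replicate 1 and nothing in CHLA10 replicate 2. The H3K4me1 lists of CHLA10 were also shorter over the genome, with 23432 and 20956 peaks against 106770 and 43083 in A673, and the part of list length was not tested. No H3K4me1 peak of A673 lay in the beta array, from PCDHB1 to the last beta gene. H3K27me3 covered 8.811 and 7.051 kb in A673 and 4.01 and 4.312 kb in CHLA10.

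Beyond the last gamma variable exon, 2 regions inside the gamma genes carried several marks. At chr5:141492783-141496606 both A673 libraries had H3K4me1 (24.3 and 23.3) and H3K27ac (12.4 and 12.6). The A673 H3K27ac peaks, chr5:141492783-141494588 and chr5:141495371-141496526, did not overlap, so the libraries called different sites within the region. H3K4me3 was called there in A673 replicate 1 alone (21.5). In CHLA10, 1 library had H3K4me1, at 2.76, and 1 had H3K27ac, at 4.16. At chr5:141506619-141510235, 9 lists had a peak. H3K27ac there was 17.7 and 13.7 in CHLA10 and 7.70 in A673 replicate 2 alone, and H3K4me1 was called in both A673 libraries and in no CHLA10 library. H3K4me3 was called there in all 4 libraries.

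Some H3K4me3 regions lay outside every protocadherin start window. At chr5:141039453-141041288, 10.1 kb before PCDHB1, all 4 libraries had a peak, at 25.6 and 13.3 in A673 and 21.9 and 36.3 in CHLA10. At chr5:141326080-141326524, 3.99 kb before PCDHGA1, only the A673 libraries did, at 10.6 and 17.6. At chr5:141077005-141078037, at the upper end of the antisense RNA gene PCDHB1-AS1, only the CHLA10 libraries did, at 5.71 and 16.7. H3K27me3 was called in both A673 libraries at chr5:141042000-141046702, at 2.25 and 2.76. This region lay upstream of PCDHB1 and was separate from the peaks over its start. TAF7, which encodes a subunit of the general transcription factor TFIID and lies between the beta and gamma arrays, had H3K4me3 in all 4 libraries.

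**Figure D5:**
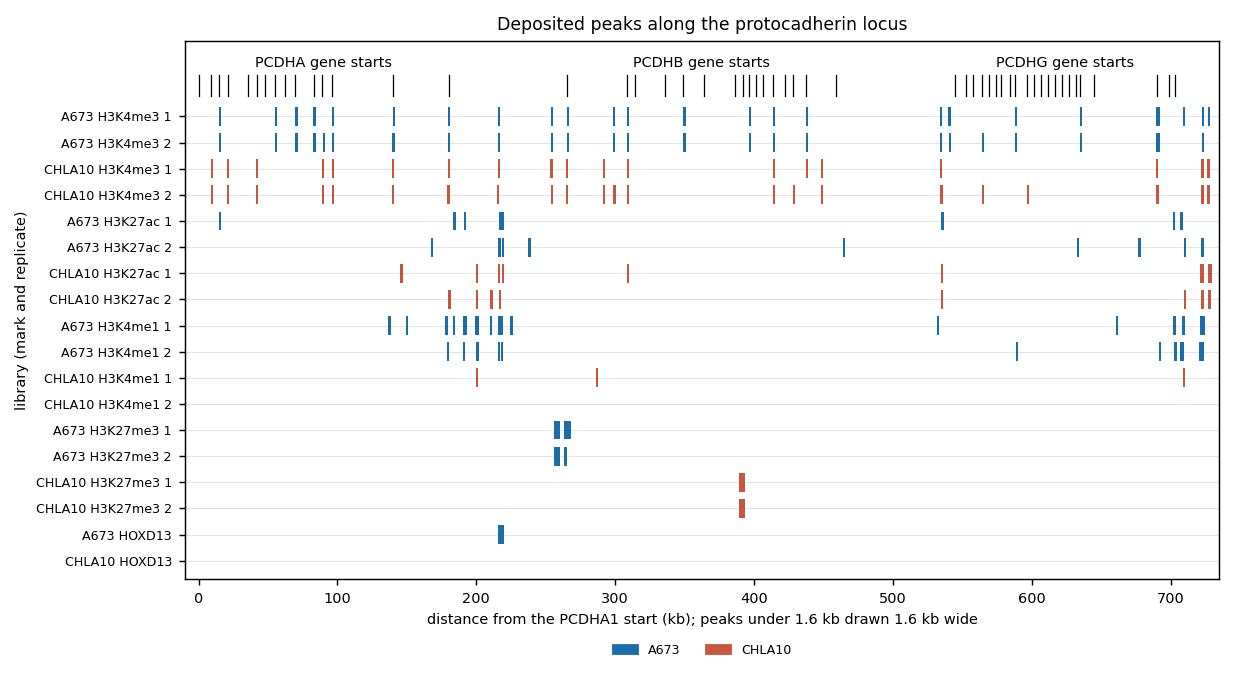
Peaks of the 18 libraries (rows) along the locus, in kb from the PCDHA1 start, with the 53 gene starts as ticks at the top, blue for A673 and red for CHLA10; peaks under 1.6 kb are drawn 1.6 kb wide so that they can be seen. H3K4me3 follows the gene starts with gaps that differ between the lines, and HOXD13 appears at a single place, in A673.

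Other genes of the pathway were counted in the same way, to be read beside the shares of all genes given above (55.1% with H3K4me3 in all 4 libraries, 1.81% in A673 only and 1.85% in CHLA10 only). For H3K27ac the shares were 1.20% in A673 only and 7.92% in CHLA10 only. For H3K27me3 they were 3.15% and 2.37%, and for H3K4me1 in A673 only the share was 4.11%. Of 20 regulators of protocadherin choice and silencing, which include CTCF, cohesin subunits, SMCHD1, DNMT3A, DNMT3B and SETDB1, 19 had H3K4me3 in all 4 libraries and none in 1 line only. The exception was RAD21, whose strand was not given and whose lower boundary was therefore used. H3K27ac was present at 5 of them in A673 and at 9 in CHLA10 (against 4.66% and 14.5% of all genes), with MAU2 in A673 only and SMC3, EZH2 and EED in CHLA10 only. STAG1, a cohesin subunit gene, had a HOXD13 peak at its start in A673. Of 16 intracellular and processing partners, such as FYN, ADAM10 and the WAVE complex gene CYFIP1, 15 had H3K4me3 in all 4 libraries. PTK2, the other, also had no strand given. H3K27ac was in CHLA10 only at FYN and MARCKS, and H3K27me3 in A673 only at PDCD10 and NLGN1.

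Of the 12 non-clustered protocadherins, 9 had H3K4me3 in all 4 libraries and PCDH15 had it in CHLA10 only, together with H3K27me3. None had H3K27ac in both libraries of a line, and PCDH12 had H3K4me1 in A673 only. Of 14 classical cadherins, 7 had H3K4me3 in A673, 8 in CHLA10 and 6 in both, with CDH10 and CDH12 in CHLA10 only. H3K27me3 was in A673 only at CDH1, CDH6 and CDH20 (against 3.15% of all genes). CDH1 and CDH6 had no strand given, so their lower boundary was used. Of 20 neighbouring genes of the locus, 12 had H3K4me3 in all 4 libraries and CD14 had it in CHLA10 only. None of these lists had a gene with H3K4me3 in A673 only, which 1.81% of all genes had, and the difference from the clustered protocadherins was not tested.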

How the data were processed

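Peak lists of 18 CUT&RUN libraries were used as the authors deposited them, 1 list per library and not pooled. The submitters' processing notes list the build hg38 and the tools MACS2, Bowtie2, bedtools and SEACR 1.2, with no role for any of them. Peak names in the deposited lists mark H3K27me3 as broad peaks without a control and every other call as narrow peaks against IgG. The authors give each peak a score, a fold enrichment (a ratio over the caller's background), −log10 p and −log10 q values and, in narrow lists, a summit offset. No deposited q-value exceeds 0.01. Peak numbers have gaps, so lists are subsets by a criterion not given in the sources used here. There are no read counts, and the number of libraries limits the precision.

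From these files, overlaps of at least 1 bp with 1 kb on each side of gene starts were computed in Python 3.11.15 with numpy 2.4.6, after tests on simulated data. Genes came from RefSeq GRCh38.p14 (chromosomes 1 to 22 and X). The transcription start was used for the 79.2% of genes with a strand in the promoter table, and the lower boundary for the rest. The genes and gene lists were chosen with earlier results of these data known. Genes were named if marked in 1 line only, if among the 3 strongest of a library, if C-type or if at an end of an array, with all other genes counted; those named beyond this rule were chosen after their values were seen. Alternatives were windows of 0.5 and 2.5 kb, an overlap of 200 bp, the upper 50% of peaks by q, lists of equal peak number, and each library left out. IgG libraries entered no comparison.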

Additional observations from a re-analysis of the deposited data

How the results depend on the processing

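The 18 counts of marked members were recomputed under 136 alternatives, of which 24 moved a count by more than 1.5 times. With windows of 0.5 or 2.5 kb, an overlap of 200 bp or with lists of equal peak number, every count of H3K4me3, H3K27ac and H3K27me3 stayed within that factor. The HOXD13 counts were 0 throughout, and lists of equal peak number were not run for HOXD13. When only the upper 50% of every list was kept, H3K4me3 fell from 16 to 5 members in A673 (PCDHA3, PCDHB2, PCDHB11, PCDHGA11 and PCDHGC3), from 11 to 5 in CHLA10 (PCDHA6, PCDHAC1, PCDHAC2, PCDHB2 and PCDHGC3) and from 8 to 2 in A673 only (PCDHA3 and PCDHGA11). The count in CHLA10 only stayed at 3, of which 1, PCDHA6, was among the 3 counted with the full lists. PCDHAC1 and PCDHAC2, marked in both lines with the full lists, took the other places. Under that setting H3K27me3 was at 0 members in both A673 libraries and in A673 only, since fewer peaks were used. H3K4me1 in both A673 libraries and in A673 only was 0 with the 0.5-kb window, the upper 50% and lists of equal peak number, and 2 with the 2.5-kb window. Leaving out single libraries gave H3K4me3 counts of 16 to 18 in A673, 12 to 14 in CHLA10, 8 to 9 in A673 only and 3 to 5 in CHLA10 only, the last value without CHLA10 replicate 1. For H3K27ac it gave 1 to 2 in both A673 libraries, 0 to 2 in A673 only, 1 in both CHLA10 libraries and 0 to 1 in CHLA10 only. For H3K4me1 it gave 1 to 3 in both A673 libraries and in A673 only, the highest without A673 replicate 1. Taking both gene boundaries in place of the start gave shares over all genes of 64.3% and 63.9% for H3K4me3 in A673 and CHLA10. No paired analysis was possible because the counts come from no test.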

Other observations

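Of the 6 protocadherin pseudogenes of the locus, PCDHA14, PCDHB17P, PCDHB18P, PCDHB19P, PCDHGB8P and PCDHGB9P, only PCDHB18P had a peak at its start. H3K4me3 was called there in both CHLA10 libraries, with −log10 q values of 18.5 and 22.7 and fold enrichments of 11.7 and 13.4, and in no A673 library. The peaks, of 585 and 644 bp, began 35 bp after and 24 bp before the annotated start.

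At the shared end of the gamma genes, chr5:141512440-141515483, the CHLA10 libraries had H3K4me3 (39.1 and 38.7) and H3K27ac (14.8 and 12.1), and A673 had H3K4me3 in replicate 1 alone (13.6). The gene DIAPH1, which encodes a formin and is listed on the opposite strand, ends in the same stretch.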
